A study of Homo sapiens with 2 samples.

Results

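Short peaks, those spanning less than 500 bp from start to end in the list of RNA regions recovered with HA-precipitated GATA2, numbered 650 of 2692 peaks (24.1%). They were selected on length alone, the end minus the start of each listed peak, so their lengths are a description and not a finding. The score and the position come from the same peak call as the length, and short and longer peaks are therefore set side by side without a test. The other 2042 peaks are called longer peaks here.

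The RNA came from a GATA2-transgenic derivative of K562, a suspension line established from human chronic myelogenous leukaemia. GATA2 binds DNA through zinc fingers and acts in stem and progenitor cells of the blood. Both libraries of the series, 1 HA immunoprecipitate and 1 input taken from the lysate and bead mixture, came from cells of this genotype. These had received 1 µg/mL doxycycline for 5 hours and, for 24 hours, 100 µM 4-thiouridine, a uridine analogue that crosslinks under long-wave light, before irradiation at 365 nm with 0.3 J/cm2. How the transgene is driven and whether the line is a clone are not stated in the labels. The peak list belongs to the immunoprecipitate. No untreated or transgene-free cells are among the samples, and the input was not analysed here, so no peak can be read as specific to GATA2. There was 1 library per group and no replicate check of any peak, and read depth is unknown. All positions are on hg19, counted from 1.

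In CLIP, light joins a protein to the RNA it touches, RNase trims what is unprotected, and the RNA that stays with the protein is sequenced. A peak caller then joins neighbouring windows rich in reads, so a compact RNA can give a narrow region and a long transcript read along its length can give a broad one. Compact, abundant RNAs made by RNA polymerase III, such as 5S ribosomal RNA, a part of the large ribosomal subunit, and the transfer RNAs that carry amino acids to the ribosome, are frequent passengers in CLIP libraries. Both kinds of RNA are shorter than any peak in this list. Replication-dependent histone genes, which encode the core and linker histones made in S phase, are also short and lack introns, and in humans most of them share a stretch of chromosome 6 with a large group of tRNA genes.

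The short peaks filled a narrow range of lengths. They ran from 314 to 499 bp, with a median of 398 bp and quartiles of 370 and 435.75 bp. Together they covered 0.262 Mb, or 8.03% of the 3.26 Mb under all peaks, although they were 24.1% of the peaks by number. Lengths under 350 bp were found in 83 of them, lengths of 350 to 399 bp in 250, 400 to 449 bp in 202 and 450 to 499 bp in 115. The median longer peak measured 1015 bp.

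The shortest peak of the list, found on chromosome 12 at 125406031 to 125406344, measured 314 bp and scored 64.34. The next 4 all measured 317 bp. The one on chromosome 1, from 241161527 to 241161843, scored 203.35. The next, at 124506392 to 124506708 of chromosome 11, scored 81.05, as did the one at 28831189 to 28831505 of chromosome 6, and that on chromosome X, from 41152088 to 41152404, scored 79.05. Of these 5 narrowest regions, 1 scored above 200 and the others between 64.34 and 81.05.

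At the 500 bp threshold, the list ran on without a break. The last 3 peaks inside it measured 497, 498 and 499 bp. They started at 18421697 on chromosome 16, at 50103695 on chromosome 3 and at 87505835 on chromosome 7 and scored 73.3, 59.56 and 50.63. The first 3 outside it measured 500, 501 and 503 bp. They started at 13259269 on chromosome 10 and at 11030322 and 91722324 on chromosome 7 and scored 188.97, 68.59 and 57.36.

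The score is the authors' own value per peak, with a lowest value of 50 in the list. It is used here to describe and rank peaks within this list, and its scale is not stated. Short peaks had a median score of 70.3 (95% interval 67.94 to 73.62 from order statistics), with quartiles of 58.5 and 91.1 and a range from 50.01 to 292.42. Longer peaks had a median of 64.6 (63.58 to 65.72), with quartiles of 55.7 and 83.2 and a range up to 735.93. The medians differed by 5.74 score units. These intervals treat peaks as independent and cover counting error only, and peaks of 1 library are not replicates.

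A score above 100 was given to 120 of the 650 short peaks (18.5%, Wilson 95% interval 15.7% to 21.6%), against 16.0% of all peaks and 311 of the longer peaks (15.2%, 13.7% to 16.9%). Without the peaks of the 5S window described further on, the share was 16.9% for short and 15.0% for longer peaks. The share of short peaks above this score is therefore close to that of the whole list. Above 150 the counts were 43 short peaks (6.62%) and 98 longer peaks (4.80%), against 5.24% of all peaks. Above 200 there were 21 short peaks (3.23%) and 47 longer peaks (2.30%), against 2.53% of all peaks. Without the 5S window these shares were 4.86% for short and 4.66% for longer peaks above 150, and 2.51% and 2.31% above 200.

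The very top of the list held no short peak. All 13 peaks above 300, which were 0.483% of the list, were longer peaks, from 642 to 5121 bp with a median of 2025 bp. The value of 0 of 13 allows a share of up to 23.1% by the limit of 3 counts, and up to 22.8% by the Wilson interval, both close to the 24.1% of short peaks in the list. Below that level the share of short peaks was 19.7% (95% interval 16.6% to 23.3%) among the 543 peaks scoring 50 to under 55. It was 31.7% (27.2% to 36.6%) among the 372 peaks scoring 80 to under 100, 26.6% (21.8% to 31.9%) among the 290 scoring 100 to under 150, and 38.2% (26.5% to 51.4%) among the 55 scoring 200 to under 300. Without the 5S window the last share was 32.0%, or 16 of 50 peaks. From a score of 80 to under 300, the intervals of the classes overlap one another.

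**Figure D1:**
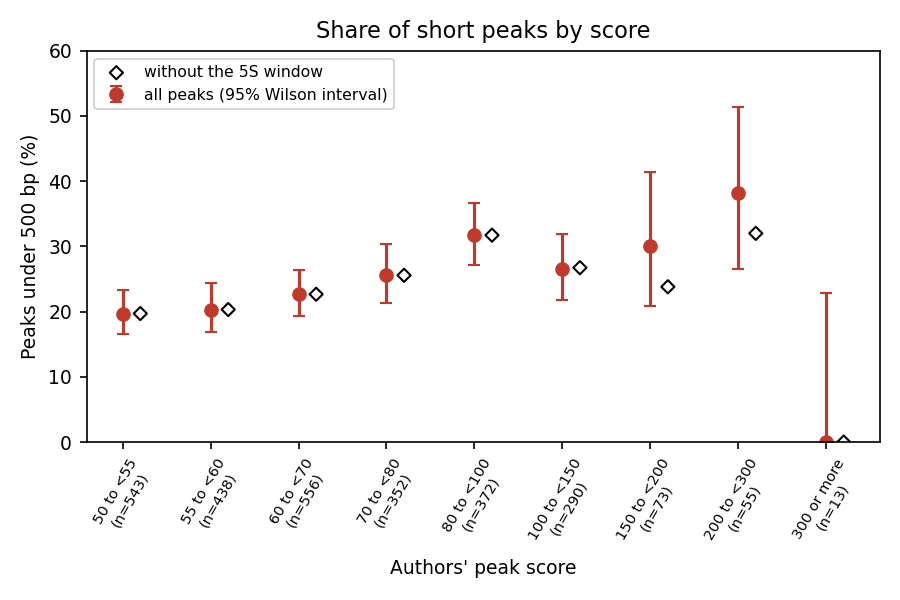
Share of peaks under 500 bp (%) in classes of the authors' peak score, with 95% Wilson intervals over all peaks and, as open diamonds, the share without the 5S window; n is the number of peaks in a class. The share is 19.7% in the lowest class, 31.7% at 80 to under 100, 38.2% at 200 to under 300, and 0% among the 13 peaks of 300 or more.

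Within the short peaks, the narrower ones had the higher median scores. Peaks under 350 bp had a median score of 75.6 (95% interval 66.82 to 85.16) and those of 350 to 399 bp a median of 77.1 (71.07 to 79.73). The median was 66.6 (62.68 to 70.93) at 400 to 449 bp and 66.2 (61.41 to 69.13) at 450 to 499 bp. The interval of the peaks under 350 bp overlaps all the others, and that of the 350 to 399 bp class lies just above those of both wider classes. Without the 5S window, which holds 9 peaks of the 350 to 399 bp class, its median was 74.7 (68.91 to 79.44) and its interval overlapped that of the 400 to 449 bp class (62.62 to 70.2) and that of the 450 to 499 bp class. Across the 650 short peaks the rank correlation of length with score was -0.16 and Pearson's r was -0.11, and without the 5S window they were -0.16 and -0.12. These are descriptions across peaks of 1 library, and they are weak.

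Over the whole list, the median score was lowest at intermediate lengths. It was 66.6 at 500 to 599 bp, 62.4 (95% interval 61.03 to 63.77) at 600 to 849 bp and 63.6 at 850 to 1349 bp, and reached 76.4 (70.31 to 82.3) among the 187 peaks of 3000 bp or more. The medians of the shortest and the broadest peaks were thus alike in size, although the share above 100 was 20.5% under 350 bp and 22.0% at 350 to 399 bp, and 31.6% at 3000 bp or more.

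**Figure D2:**
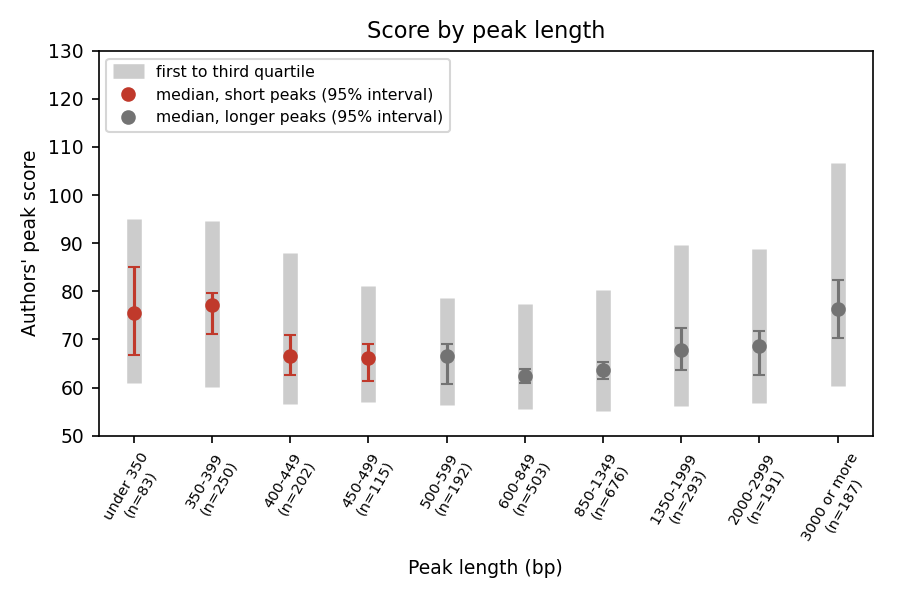
Median of the authors' peak score in classes of peak length (bp), with its 95% interval as an error bar and the interquartile range as a grey bar; red points are short peaks and grey points longer ones. The median is 75.6 and 77.1 in the 2 classes under 400 bp, falls to 62.4 at 600 to 849 bp and is 76.4 at 3000 bp or more.

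The 10 highest-scoring short peaks lay on 8 chromosomes, and 0 of them lay in the 5S window or in the tRNA and histone window. Each of these windows held only 1.85% of all short peaks. The highest short peak of the 5S window, with 215.93 and rank 49, came just below the lowest of the 10, with 216.9. The 10 peaks ranked from 14 to 47 in the whole list and measured 354 to 477 bp, with a median of 370 bp. The first, on chromosome 13 from 110076216 to 110076692, scored 292.42 over 477 bp, and its nearest neighbour in the list was 1512 kb away. It was 1 of only 5 short peaks among the 41 peaks of chromosome 13. The second, on chromosome X from 49354088 to 49354527, scored 248.1, and a further peak began 313 bp beyond it.

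Chromosome 3 held a pair of the 10, from 179879417 to 179879770 with a score of 246.73 over 354 bp and from 180949525 to 180949894 with a score of 227.11 over 370 bp. Chromosome X held a second member, which scored 223.56 over 364 bp and reached from 49306341 to 49306704. On chromosome 12 the peak from 13199077 to 13199441 scored 244.5 over 365 bp, and on chromosome 6 the peak from 133593947 to 133594391 scored 240.32 over 445 bp. On chromosome 15 the peak from 68132014 to 68132383 scored 236.76 over 370 bp. The remaining peaks of the 10 scored 233.52 on chromosome 8, between 93179422 and 93179780, and 216.9 on chromosome 1, between 145277300 and 145277740. Of the 10, 7 had no other peak within 100 kb and 2, both on chromosome X, had one within 10 kb. In the whole list 47.2% of peaks, and 50.6% of the short ones, had another peak within 100 kb.

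The 5S window, chromosome 1 from 228.74 to 228.79 Mb, is the place of the tandem 5S ribosomal RNA genes. It held 17 peaks, 0.632% of the list, of which 12 were short (70.6%, 95% interval 46.9% to 86.7%). These made up 1.85% of all short peaks (1.06% to 3.20%), while the 5 longer peaks of the window made up 0.245% of all longer peaks (0.105% to 0.572%). Every one of the 12 scored above 100, as did the 5 longer ones. The median score was 199.1 among its short peaks and 157.14 among its longer ones, while short peaks of the whole list had 70.3.

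The 12 short peaks were close copies of one another in size and score. In order along the chromosome they started at 228752467, 228754708, 228756923, 228759143, 228761385, 228763624, 228765866, 228768107, 228770347, 228777044, 228779283 and 228781516. Their scores in the same order were 196.53, 198.33, 190.11, 197.77, 205.56, 195.63, 215.93, 198.33, 209.39, 207.67, 199.87 and 206.4. Their lengths were 396, 398, 442, 393, 401, 395, 394, 398, 401, 394, 395 and 393 bp, so that 11 of the 12 fell between 393 and 401 bp. The mean score was 202 with an SD of 7.22 over these peaks, and the lowest of them ranked 81 in the whole list.

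The 5 longer peaks of the window had the lowest scores in it, and none reached that of any short one. Those starting at 228772570 and 228774812 measured 543 and 542 bp, scored 161.78 and 157.14, and lay between the ninth and the tenth short peak. Those starting at 228745202, 228747983 and 228749684 preceded the first short peak, measured 940, 543 and 943 bp and scored 147.19, 177.1 and 137.33. From the first short peak to the last, the 14 peaks, short or longer, started 2215 to 2242 bp apart with a median of 2239 bp, and the gaps between them were 1690 to 1849 bp. The length threshold of 500 bp thus cuts through an array with a constant step. How reads that fit several copies equally well were placed is unknown, so the 12 peaks cannot be counted as 12 separate sources of RNA.

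**Figure D3:**
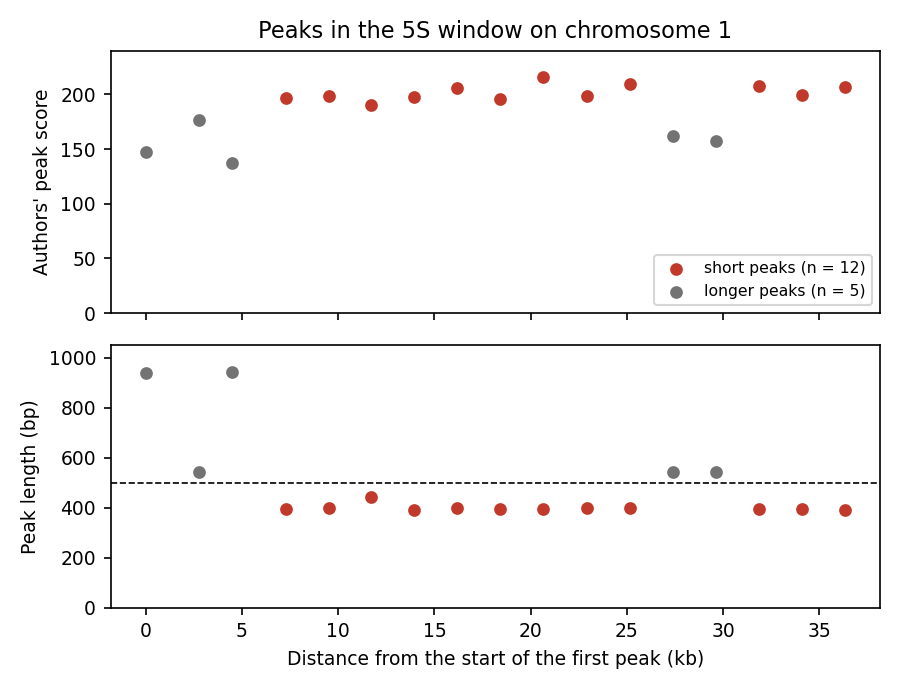
The 17 peaks of the 5S window on chromosome 1 against the distance from the start of the first peak (kb), with the authors' peak score above and the peak length (bp) below; red points are the 12 short peaks, grey points the 5 longer ones, and the dashed line is 500 bp. The short peaks score 190.11 to 215.93 and the longer ones 137.33 to 177.1.

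The window on chromosome 6 from 26 to 28.97 Mb, known for its tRNA and histone genes, held 39 peaks, 1.45% of the list. Of these 12 were short (30.8%, 95% interval 18.6% to 46.4%), a share that includes the 24.1% of the whole list within its interval. The window held 1.85% of the short peaks (1.06% to 3.20%) and 1.32% of the longer peaks (0.910% to 1.92%). The intervals of these shares overlap. Outside the window, 38 of the 122 peaks of chromosome 6 were short (31.1%).

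The 12 short peaks of this window were narrow among the short peaks. Their median length was 329 bp, 9 of them were under 350 bp and 11 under 365 bp, and the exception was 434 bp long. The 38 short peaks elsewhere on chromosome 6 had a median length of 399 bp. Of the 83 peaks under 350 bp in the whole list, 9 lay in this window (10.8%), whereas 3 of the 567 short peaks of 350 bp or more did (0.529%). Chromosome 6 held 16 of the 83, and the next chromosomes, 1, 8, 12 and 17, held 6 each. Of all short peaks, chromosome 6 held 7.69%, chromosome 1 12.3%, chromosome 8 4%, chromosome 12 5.54% and chromosome 17 6.62%. The length is the measure that chose the short peaks, so these counts describe them and were not tested.

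The scores of these narrow peaks were moderate. They ran from 54.16 to 127.3 with a median of 84.8, against 65.4 for the 27 longer peaks of the window, and 8 of the 12 exceeded the median of all short peaks. A score above 100 was given to 1 short and 5 longer peaks of the window. The highest-scoring short peak there lay from 27500013 to 27500341, with a score of 127.3 over 329 bp. The next ones lay from 27758773 to 27759206 with a score of 98.87, from 27509286 to 27509603 with a score of 94.9, from 27515241 to 27515602 with a score of 91.81 and from 28949968 to 28950320 with a score of 89.18. The second of these was the 434 bp exception. The highest score in the window, 211.63, belonged to a longer peak.

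Along the window, 1 of 11 peaks was short between 26 and 27 Mb (95% interval of the share 1.62% to 37.7%), where the longer ones had a median length of 1392.5 bp. Between 27 and 28 Mb, 7 of 21 were short (17.2% to 54.6%), and from 28 Mb to the end of the window 4 of 7 (25.0% to 84.2%). These intervals overlap and rest on few peaks, and a difference in placement was not tested. The last 4 peaks of the window, from 28574958 to 28950320, were all short and measured 317 to 353 bp. With no annotation of hg19 used here, which of these peaks overlap a tRNA gene and which a histone gene was not tested.

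**Figure D4:**
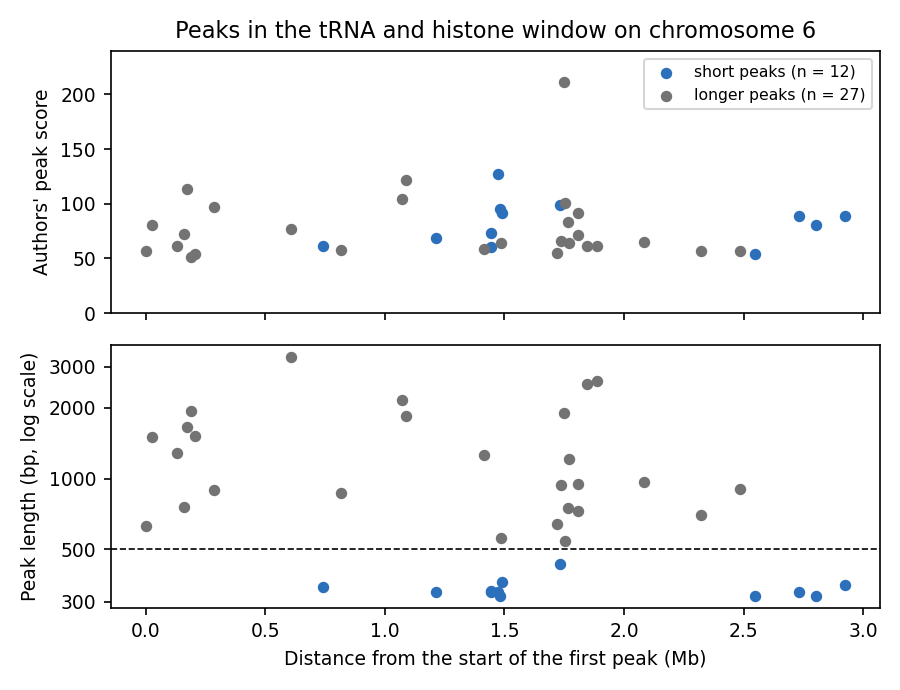
The 39 peaks of the tRNA and histone window on chromosome 6 against the distance from the start of the first peak (Mb), with the authors' peak score above and the peak length (bp, log scale) below; blue points are the 12 short peaks, grey points the 27 longer ones, and the dashed line is 500 bp. All but 1 of the short peaks measure 317 to 362 bp, well below the longer peaks, which start at 543 bp.

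Together the 2 windows held 24 short peaks (3.69%), and 626 lay elsewhere. The 5S peaks formed a tight group, with a median length of 395.5 bp, and 11 of the 12 chromosome 6 peaks scored under 100. Of the other short peaks, 7 had scores within the range of the 12 peaks of the 5S window. Leaving out both windows changed the median score of the short peaks from 70.3 to 69.2 and that of the longer ones from 64.6 to 64.5.

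**Figure D5:**
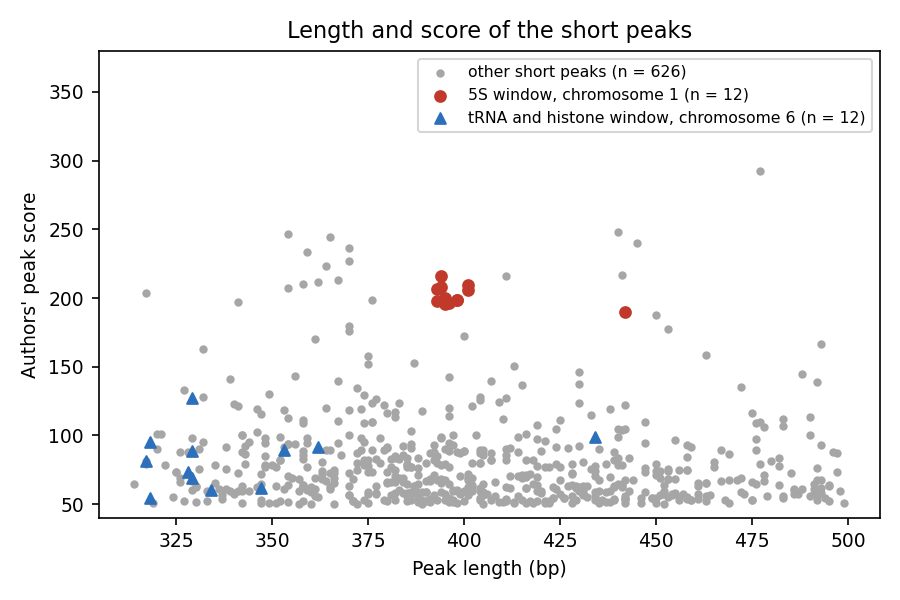
Length (bp) and authors' score of each of the 650 short peaks, with the 12 peaks of the 5S window as red circles, the 12 peaks of the tRNA and histone window as blue triangles and the other 626 in grey. The red circles lie between scores of 190.11 and 215.93, and 11 of the 12 blue triangles lie at 317 to 362 bp.

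No short peak had a neighbour, of any length, within 200 bp (0 of 650, which allows a share of up to 0.462% by the limit of 3 counts and 0.588% by the Wilson interval), whereas 22 of the 2042 longer peaks had one (1.08%, 95% interval 0.713% to 1.63%), against 0.817% of all peaks. The smallest gap beside a short peak was 253 bp and that beside a longer peak 14 bp. The median gap to the nearest peak on either side was 93.3 kb for short and 125 kb for longer peaks, with lower quartiles of 14.3 and 17.8 kb. A neighbour within 100 kb was found for 50.6% of short peaks (46.8% to 54.4%) and 46.1% of longer peaks (44.0% to 48.3%), against 47.2% of all peaks. These 2 intervals overlap. The peak caller sets both where a peak ends and what separates it from the next, so a gap and a length are not independent measures.

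Within 1000 bp, 27 short peaks (4.15%, 2.87% to 5.98%) and 115 longer peaks (5.63%, 4.71% to 6.72%) had a neighbour, against 5.27% of all peaks. Within 10 kb, it was 143 short peaks (22.0%, 19.0% to 25.3%) and 401 longer peaks (19.6%, 18.0% to 21.4%), against 20.2% of all peaks. These shares overlap between short and longer peaks and lie near the background of the list. The nearest neighbour of the 143 was a short peak for 55 (38.5%), against 86 of the 401 longer peaks (21.4%) and 25.9% of all peaks with a neighbour at this distance. Without the 5S window it was 46 of 131 short peaks (35.1%). Neighbouring short peaks count each other, so these counts are not independent. The median score was 69.8 for the 143 short peaks with a neighbour within 10 kb and 70.4 for the 507 without one. For longer peaks the medians were 70.2 with such a neighbour and 63.3 without.

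Runs of short peaks with at most 10 kb between successive members, longer peaks in between allowed, numbered 28 on 15 chromosomes and took in 72 short peaks (11.1%). Of these runs 22 were pairs, 4 had 3 members, 1 had 4 and the run of the 5S window had 12. In 23 of the 28 no longer peak lay between the short ones. Without the 5S window, the members had a median score of 69.1, close to that of all short peaks. In 15 of the 22 pairs both members scored 100 or less, and of all short peaks 18.5% scored above 100. Runs of longer peaks were not counted, so the 28 runs and the share of 11.1% have no background beside them. A neighbour of any length within 10 kb was found for 22.0% of short and 19.6% of longer peaks.

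The run of 4 lay on chromosome 8 from 48733949 to 48749988. Its members measured 413, 376, 428 and 475 bp and scored 150.38, 123.53, 55.84 and 53.08 in order of position, so the scores were uneven, unlike those of the 5S window. Among the runs of 3, that on chromosome 1 from 148307403 to 148326857 scored 88.7, 71.77 and 139.62. Its members of 400, 401 and 407 bp, with gaps of 9114 to 9133 bp between them, were nearly equal in size and in step. How reads that fit several places equally well were placed is unknown for this run too. A second run on chromosome 1, from 227327068 to 227335267, scored 116.75, 83.69 and 61.82. The run on chromosome 6 from 27500013 to 27515602, part of the tRNA and histone window, scored 127.3, 94.9 and 91.81, and the run on chromosome 7 from 91622210 to 91625340 scored 66.02, 64.51 and 92.42.

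Crowded regions, taken as at least 10 peaks of any length with at most 100 kb between neighbours, were defined after the positions had been seen. There were 10 of them with 130 peaks, of which 44 were short (33.8%). The region around the 5S window alone held 19 of the 130 peaks and 13 of the 44 short ones. The short share ranged widely, from 0 of 10 peaks on chromosome 16 from 22420300 to 22539562 and 1 of 12 on the same chromosome from 21413307 to 21495854 to 6 of 10 on chromosome 8 from 48711325 to 48875835 and 13 of 19 in the region around the 5S window. On chromosome 6 the region from 27748233 to 27916037 held 1 short peak among 11. The 95% intervals of these shares include the 24.1% of the whole list in all but the regions on chromosome 8 (31.3% to 83.2%) and around the 5S window (46.0% to 84.6%). These intervals treat neighbouring peaks as independent, and the short peaks of the 5S window cannot be counted as separate sources. A departure of any region from the list was not tested.

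On chromosome X the crowded region from 49179668 to 49397969 held 6 short peaks among 18. In order of position these scored 124.67, 72.1, 62.37, 223.56, 85.26 and 248.1, with lengths of 409, 363, 402, 364, 382 and 440 bp. The highest-scoring longer peak of the region reached 113.61. The 2 strongest peaks of this region were therefore short, and both were among the 10 highest-scoring short peaks. On chromosome 1 from 148254928 to 148347256, 5 of 16 peaks were short, with a median score of 109.62 against 60.33 for the longer peaks there. In 7 of the 9 regions with a short peak, the short peaks had the higher median score. Most of these medians rest on few short peaks. The regions starting at 21413307 on chromosome 16 and at 27748233 on chromosome 6 held only 1 each. In the whole list the median was also higher for short peaks, with 70.3 against 64.6.

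By chromosome, the share of short peaks varied around the 24.1% of the whole list. On 21 of the 23 chromosomes other than Y the 95% interval of the share included that value. The exceptions were chromosome 21, with 12 short peaks among 29 (41.4%, 25.5% to 59.3%), and chromosome 6, with 50 among 161 (31.1%, 24.4% to 38.6%), whose intervals began just above it. The lowest shares were 12.2% (5.32% to 25.5%) on chromosome 13, with 5 of 41, and 15.1% (9.05% to 24.2%) on chromosome 19, with 13 of 86. Chromosome Y held 2 short peaks among 6.

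Chromosome 1 held the most short peaks, 80, and its share of 23.6% was 21.1% without the 5S window. Of these 80, 26 scored above 100, including all 12 short peaks of the 5S window. Among all short peaks the share above 100 was 18.5%. Chromosomes 17 and 19, both known as gene-rich, stood on opposite sides of the list's share, with 30.3% (23.3% to 38.3%) and 15.1%. In density along the chromosome, chromosome 17 had 0.543 short peaks per Mb between its first and last peak, chromosome 15 had 0.391 and chromosome 13 had 0.0522. Peaks of any length numbered 1.79, 1.78 and 0.428 per Mb on these chromosomes, in the same order. The median score of the short peaks was above that of the longer peaks on 18 of the 23 chromosomes. The 21 short peaks above 200 were spread over 10 chromosomes, and 5 of them lay in the 5S window.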

How the data were processed

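Peaks came from 1 HA immunoprecipitate, and the input has no values used here. The build hg19 and the tools bedtools, SAMtools, Bowtie2, cutadapt and UMI-tools 1.0.0 are named, without roles, per the submitters' processing notes. Peak names in the deposited file start with MACS, and for its version, threshold, control and treatment of multiply mapping reads nothing is stated (not given in the sources used here). The deposited values are a score per peak, of unstated scale, and start and end positions in bp, with no strand and no read counts.

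Short peaks, windows, gaps between peak edges and runs were computed from these positions. The 2 windows came from the definition of this set of peaks, and a peak overlapping one was counted in it. Members, windows and lists were chosen with earlier results of these data known. The named peaks are the 10 highest-scoring short peaks, the 5 shortest, 3 on each side of 500 bp, all peaks of the 5S window, the 5 highest-scoring short peaks of the chromosome 6 window, and runs of 3 or more. Crowded regions and their members, and single values at the ends of ranges, were named after they were seen. Intervals are Wilson 95% for shares and order-statistic for medians, and a share of 0 also has the limit that 3 counts would give. No test was made, since length, score and position come from 1 peak call on 1 library. The counting of short peaks, windows and runs was tested on simulated data. Alternatives were other length and score thresholds, merged peaks, other gaps and leaving out the windows. No gene or sequence was assigned, since the tables at hand are of GRCh38. Software was matplotlib 3.10.9, scipy 1.17.1, pandas 2.3.3 and numpy 2.4.6 under Python 3.11.15.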

Additional observations from a re-analysis of the deposited data

How the results depend on the processing

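Of 60 alternative values of shares, medians and differences, 50 stayed within the 95% interval of the original and kept its sign. A further 2, both differences given below, stayed within the interval but changed sign. Of 11 alternative counts, 6 stayed within 1.5 times of the original. All alternatives reuse the same peaks. Merging peaks with gaps of at most 100 bp could not change the values of short peaks, since none had a neighbour within 200 bp. Counting only peaks wholly inside a window left both window shares at 1.85%. The tally therefore includes values that had no room to move. The differences between short and longer peaks, and leaving out both windows, were added after seeing the data. With a length threshold of 400 bp there were 333 short peaks with a median score of 77.1, 12.5 above that of the other peaks, 3.30% of them in the chromosome 6 window and 7 runs. With peaks at or above the median score of the list, which raises scores by construction, there were 373 short peaks with a median score of 88.2, 32.2% above 100, 17.4% with a neighbour within 10000 bp, 3.22% in the 5S window and 11 runs. A score above 150 gave 6.62%, and a gap of at most 3000 bp gave 14 runs. The share with a neighbour within 10000 bp was 2.36 percentage points higher in short than in longer peaks. Its 95% interval of -1.26 to 5.98 includes no difference. This difference turned to -0.443 points at 400 bp and -0.148 points with the higher-scoring peaks, both within that interval. The cause was not tested. The median score of short peaks stayed above that of longer ones by 3.88 to 12.5 in the 6 alternatives run for it. The share above 100 was 3.23 points higher in short peaks, with a 95% interval of -0.134 to 6.60 that includes no difference. In the alternatives it was 0.209 to 6.40 points higher. All values are limited by a read depth that is not known and by having 1 library. No paired analysis was possible because neither group has a second library.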
